A study of Mus musculus with 2 samples.

Results

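The genes described here make or regulate the matrix of mineralised tissue, and they were followed in the newborn mouse ovary. The 6 genes are Ibsp, Spp1, Mgp, Alpl, Runx2 and Sparc, a set chosen by the signals and the mutant-to-control differences already seen on these same arrays. Their probe sets were all those that carry the gene's symbol alone in the annotation of the array platform. By that rule 4 of the 6 genes were found, with 7 probe sets among 34945 that name a single gene and 18193 genes in all. The 4 genes were Ibsp and Alpl with 2 and 1 probe sets and Mgp and Sparc with 1 and 3. No probe set was listed under Spp1 or Runx2 alone, so neither gene was analysed here.

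The control pool held ovary RNA of 8 mice at 2 days of age with the SmoM2 allele and the genotype Amhr2(+/+). The mutant pool held ovary RNA of 8 mice of the same age with the SmoM2 allele and the genotype Amhr2(cre/+). SmoM2 is a mutated Smoothened, a membrane protein that relays the hedgehog signal, and it signals without any ligand. Cre at the Amhr2 locus switches the allele on in somatic cells of the gonad, where the receptor for anti-Müllerian hormone is made. The controls carried the SmoM2 allele without Cre, so Cre, the altered Amhr2 copy and SmoM2 activity differ between the pools together and cannot be told apart. Each pool was hybridised to 1 array, so there is no replicate, no test and no p-value, and every difference below describes these 2 arrays. In RNA from whole ovaries, fewer cells of a type and less RNA per cell cannot be told apart.

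Mineralised matrix is built by osteoblasts and related cells, which secrete a collagen scaffold and load it with acidic proteins that bind calcium. Ibsp (bone sialoprotein) and Spp1 (osteopontin) belong to the SIBLING family of acidic phosphoproteins, which hold an integrin-binding Arg-Gly-Asp motif. Alpl, tissue-nonspecific alkaline phosphatase, removes pyrophosphate, an inhibitor of crystal growth, and Mgp, a vitamin K-dependent protein, keeps soft tissue and arteries from calcifying. Sparc (osteonectin) is a collagen-binding glycoprotein, and Runx2 is the transcription factor that commits cells to the osteoblast lineage. Several of these genes are also active outside bone: Sparc and Mgp in many stromal and vascular cells, Spp1 in macrophages and epithelia, and Alpl in early germ cells.

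Ibsp is the member with the largest difference and Sparc is a member with strong signal in both pools, and the 250 bases before the transcription start of each are shown for that reason. Both come from RefSeq on build GRCm38.p6 and are written 5′ to 3′ on the strand of the gene. Ibsp lies on the plus strand, at chr5:104299037-104299286, and Sparc on the minus strand, at chr11:55420081-55420330. Capitals mark a TATA or CCAAT motif on either strand.
Ibsp promoter: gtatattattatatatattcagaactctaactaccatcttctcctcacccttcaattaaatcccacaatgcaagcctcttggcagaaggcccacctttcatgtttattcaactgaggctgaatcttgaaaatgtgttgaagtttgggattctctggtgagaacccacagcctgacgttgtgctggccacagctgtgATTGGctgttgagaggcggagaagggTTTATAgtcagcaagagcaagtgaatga
Sparc promoter: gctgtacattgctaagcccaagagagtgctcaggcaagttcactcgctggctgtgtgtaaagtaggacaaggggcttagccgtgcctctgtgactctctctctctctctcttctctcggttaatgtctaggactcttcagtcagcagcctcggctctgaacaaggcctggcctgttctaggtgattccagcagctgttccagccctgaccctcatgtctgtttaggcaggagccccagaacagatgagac

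In the Ibsp window the TATA letters TATAAA stand on the opposite strand, from 28 to 23 bases before the start. The letters CCAAT also stand on the opposite strand, from 54 to 50 bases before it. The Sparc window holds neither. Across 32851 promoter windows of this length, 12.4% hold TATAAA and 33.8% hold CCAAT on either strand. The Runx core TGTGGT, present in 14.0% of windows, and the Gli core GGGTGGT, present in 3.92%, were searched on both strands as well. These 2 share the letters GTGGT, and neither was found in the windows of Ibsp or Sparc. CCAAT was added to the search after the sequences had been seen. The Ibsp window was 43.6% G and C and the Sparc window 54.0%, against a median of 52.4% over all windows. A match to these letters is a description of the sequence.

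Ibsp, the mineral-nucleating sialoprotein, separated the pools on both of its probe sets. Ibsp probe set 1 gave 2.1 on the control array and 1198.9 on the mutant array. Ibsp probe set 2 gave 25.5 on the control array and 118.1 on the mutant array. Both control values lay under 80.7, the median of all signals of both arrays, which served as the lowest signal counted as measured. Both mutant values lay over it. Against a control value that dim only a least fold can be given, found by setting the mutant signal over 80.7. Probe set 1 was therefore at least 14.9-fold higher in the mutant pool and probe set 2 at least 1.46-fold higher.

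The log2 ratio of mutant to control, taken after adding 22.2 to both signals, was 5.65 on Ibsp probe set 1 and 1.56 on Ibsp probe set 2. The added value is the 25th percentile of all signals. It makes the ratio of dim probe sets smaller than the ratio of the signals as read. The ratio can still exceed the least fold, as on both Ibsp probe sets. Since neither control value was over the minimum, the size of both ratios follows the added value, and no rank is given. In total 1017 probe sets lay under the minimum in the control pool and over it in the mutant pool, and 1159 did the reverse.

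The probe sets of Ibsp gave the same direction. With bounds of at least 14.9-fold and at least 1.46-fold, these values do not show whether the folds differ between the probe sets.

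**Figure D1:**
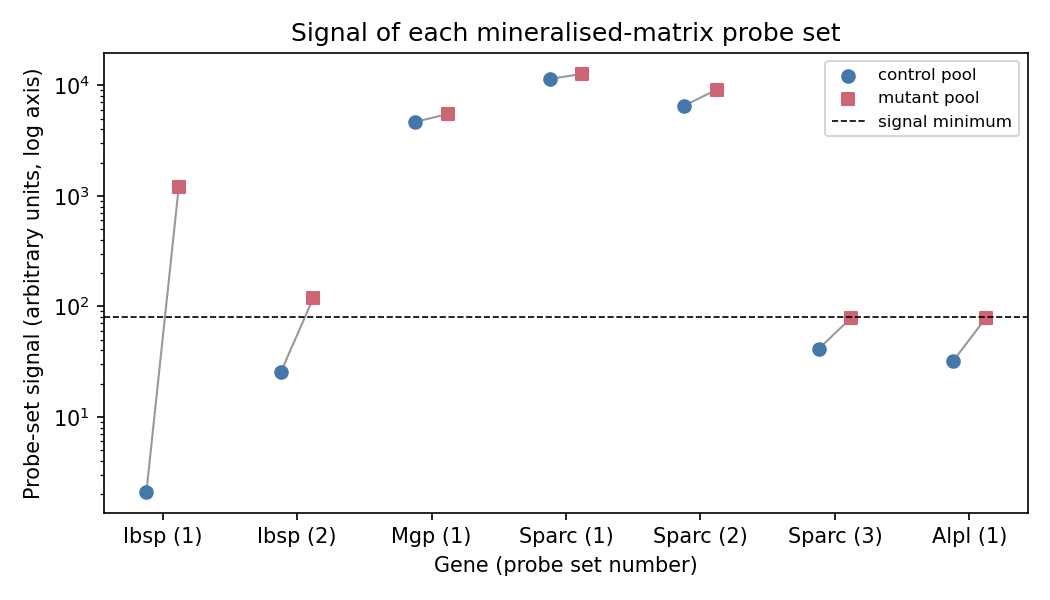
Signal of each of the 7 probe sets of the mineralised-matrix genes on the control array (circles) and the mutant array (squares), on a log axis in arbitrary units, with the signal minimum of 80.7 dashed and probe sets numbered within each gene. Ibsp crosses the minimum between the pools on both probe sets, Mgp and Sparc (1 and 2) are far over it in both pools, and Sparc (3) and Alpl are under it in both.

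Mgp, the vitamin K-dependent inhibitor of calcification, had a strong signal in both pools. Its single probe set read 4674.1 on the control array and 5500.7 on the mutant array. That is 1.18-fold higher in the mutant pool, a log2 ratio of 0.23. The only spread these files allow is the one between probe sets of the same gene, whose SD of the log2 ratio was 0.385 over 13386 measured probe sets of 5118 genes. Among the brightest of those probe sets, split by signal into 4 equal parts, it was 0.316. This spread measures neither animals nor arrays, and it also holds differences between transcripts. Lying within it or over it does not tell whether a difference would recur in other animals. The difference in Mgp was smaller than either SD.

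Sparc, the collagen-binding glycoprotein of bone and stroma, was also strong in both pools. Sparc probe set 1 read 11432.7 on the control array and 12701.6 on the mutant array, 1.11-fold higher. Sparc probe set 2 read 6557.2 on the control array and 9133.3 on the mutant array, 1.39-fold higher. Their log2 ratios of 0.15 and 0.48 lay 0.33 apart, close to the median gap of 0.32 for genes with 2 measured probe sets. The log2 ratio of probe set 2 exceeded the SD between probe sets and that of probe set 1 did not, which says nothing about animals or arrays. Sparc probe set 3 read 41.3 and 78.6, under the minimum in both pools, and no fold is given.

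Alpl, the alkaline phosphatase of mineralising tissue, was not measured by this rule. Its single probe set read 32.1 on the control array and 77.8 on the mutant array, both under the minimum, the mutant value by little. The other alkaline phosphatases in the list were under it as well. Alpi read 20.7 and 40.0 in the control and mutant pools, Akp3 24.5 and 25.5, and the brighter probe set of Alppl2 30.8 and 2.4.

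By log2 ratio, 2 of the 5 measured member probe sets passed 2-fold upward in the mutant pool and 0 passed it downward. Over all 20576 measured probe sets 2.89% passed it upward and 2.04% downward. Both probe sets that were higher belong to Ibsp. The call for Ibsp probe set 2 rests on the pseudocount, since its bound is 1.46-fold and its log2 ratio is 0.55 with values under the minimum raised to it. By gene, with the brightest measured probe set standing for each, 1 of 3 measured members was at least 1.5-fold higher and 0 were as much lower, beside 9.32% and 7.90% of 12308 measured genes. The median log2 ratio of the 3 genes was 0.23, and that of all measured genes was -0.02. The members were selected on this contrast, so these counts are a description and nothing is read from them.

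**Figure D2:**
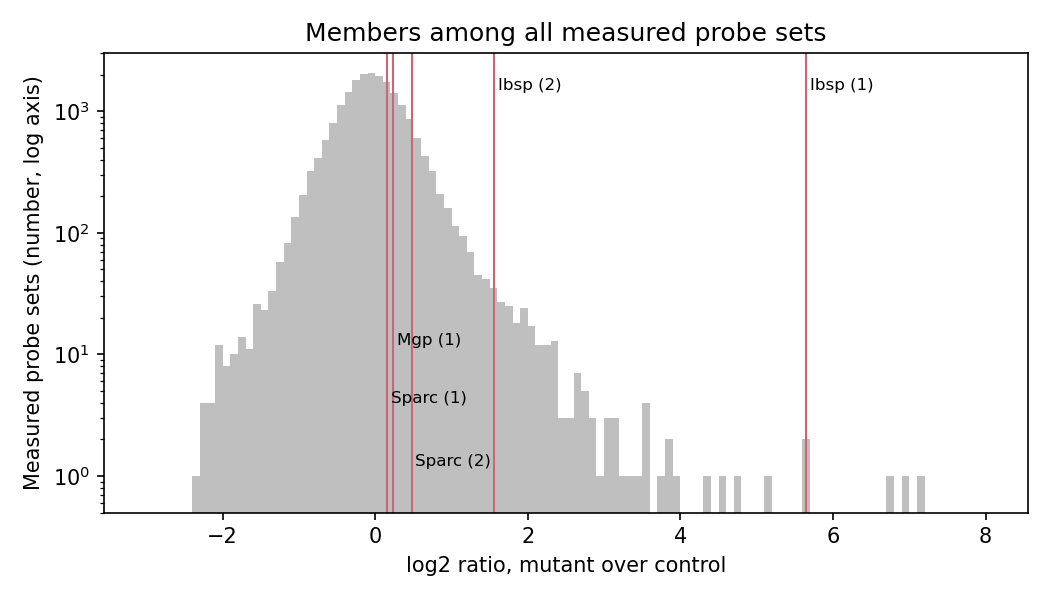
Number of measured probe sets (log axis) by log2 ratio of mutant over control, in bins of 0.1, with the 5 measured probe sets of the mineralised-matrix genes as lines. Mgp and both Sparc lines fall within the main body of the distribution at 0.15 to 0.48, Ibsp (2) at 1.56 lies on its right flank, and Ibsp (1) at 5.65 is near its right end; both Ibsp positions follow the value added before the ratio.

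Ibsp and Spp1 lie close together on chromosome 5 with Mepe between them, in a cluster of 5 SIBLING genes that lies between Sparcl1 and Pkd2. The GRCm38.p6 gene table places 7 protein-coding genes there over 427 kb, in the order Sparcl1, Dspp, Dmp1, Ibsp, Mepe, Spp1 and Pkd2. Position was not used to choose the members. Dmp1, a matrix protein of osteocytes and dentine, is the next coding gene on one side of Ibsp. Its 3 probe sets read 4.2, 46.4 and 40.2 on the control array and 15.9, 87.5 and 55.4 on the mutant array. Of the 3, 1 was just over the minimum in the mutant pool, a least fold of 1.08.

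Mepe, a phosphoglycoprotein of osteocytes and the next coding gene on the other side, read 4.7 on the control array and 24.1 on the mutant array, both under the minimum. Dspp, the precursor of the dentine sialoprotein, read 3.2 and 1.1. Of the 4 SIBLING genes analysed, Ibsp alone had a signal far over the minimum, and it had that signal in the mutant pool. Sparcl1 (hevin), a relative of Sparc at the edge of the cluster, was strong in both pools. It read 6632.4 on the control array and 10011.2 on the mutant array, 1.51-fold higher. Spp1 and Pkd2 were not analysed here.

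**Figure D3:**
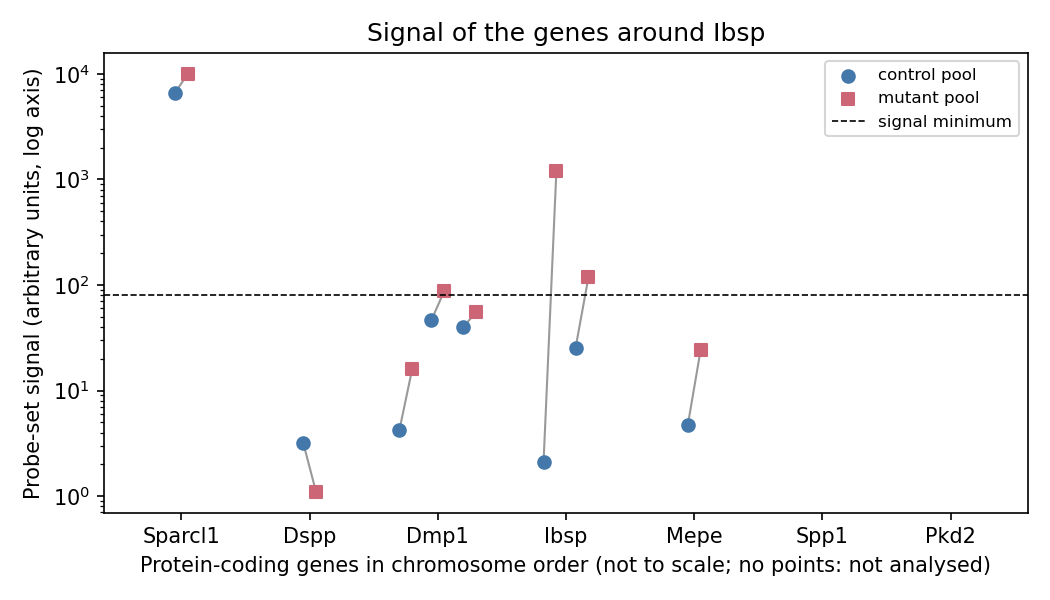
Signal (log axis, arbitrary units) on the control array (circles) and the mutant array (squares) for each probe set of the coding genes around Ibsp, in chromosome order and not to scale, with the signal minimum of 80.7 dashed. Ibsp reaches 1198.9 in the mutant pool while Dspp and Mepe stay under the minimum, and Sparcl1 is strong in both pools.

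The wider set of mineralisation genes held 87 further genes in 9 lists, of which 56 passed the signal minimum. Of the measured ones 21 (37.5%) passed 1.5-fold upward in the mutant pool and 4 (7.14%) passed it downward, against 9.32% and 7.90% of all measured genes. Their median log2 ratio was 0.32. Dmp1, Nt5e, Spock2 and Ifitm5, counted as higher, were under the minimum in the control pool, so they could only come out higher. With both arrays required to reach the minimum, 17 were at least 1.5-fold higher and 4 as much lower. The lists were drawn up with earlier results known, and matrix genes had been seen to be higher, so the share is no independent evidence of a direction.

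Collagens and the proteins that bind or process them were among the genes that were higher. Of 15 measured genes in the bone matrix list of 20, 8 were at least 1.5-fold higher and 1 was as much lower. Over all measured genes the shares were 9.32% and 7.90%. The median log2 ratio of the list was 0.64. Ogn (osteoglycin), a small leucine-rich proteoglycan, read 3953.9 on the control array and 9392.1 on the mutant array, 2.38-fold higher, and its other probe set gave 2.39-fold. Col1a1, the main collagen chain of bone, read 3014.6 and 6228.9, 2.07-fold higher, with 2.14-fold on its other probe set. Col1a2 was 1.24-fold higher on its brightest probe set and 1.46-fold and 1.88-fold on the others. Col11a1 was 1.47-fold higher on 1 probe set and 1.02-fold lower on the other. Lox, the enzyme that starts the cross-linking of collagen, was 1.86-fold higher and 2.94-fold on its other measured probe set. Omd (osteomodulin) was 1.83-fold higher, and Col5a2 1.78-fold and 1.55-fold on its 2 probe sets. Serpinh1, the collagen chaperone, was 1.60-fold higher on 1 probe set and 1.24-fold on the other. Col5a1 was 1.56-fold, 1.54-fold and 1.30-fold higher on its 3 probe sets. Ifitm5, an osteoblast membrane protein, was counted as higher by its log2 ratio of 1.68, but it read 11.0 and 83.9, a bound of only 1.04-fold. Tnc (tenascin C) was lower, at 1139.5 on the control array and 718.4 on the mutant array. Dcn (decorin) read 9566.2 and 9324.7, within the spread between probe sets.

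In the SPARC family 7 of 8 genes were measured, 3 were at least 1.5-fold higher and 0 as much lower. Over all measured genes the shares were 9.32% and 7.90%. The median log2 ratio of the family was 0.48. Smoc2, a secreted calcium-binding relative of Sparc, read 215.6 on the control array and 1524.7 on the mutant array, 7.07-fold higher. Its other probe set stayed under the minimum, at 20.2 and 72.9. Spock2, a proteoglycan relative, read 80.0 and 208.6, at least 2.58-fold higher. It was measured through the mutant pool alone. Sparcl1 is the third of these. Fstl1 was 1.40-fold higher on 1 probe set and 1.12-fold on the other, and Smoc1 read 635.9 and 563.0. Spock1 read 87.6 on the control array and 73.2 on the mutant array, and Spock3 was under the minimum in both. Sparc itself, at 0.15 and 0.48 on its 2 measured probe sets, had a smaller log2 ratio than Smoc2, Spock2 or Sparcl1 in these arrays. The differences were not tested. Sparc probe set 2 and Sparcl1, at 0.59, lay closer together than 0.385, the SD between probe sets of the same gene. That SD does not measure a difference between genes.

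Genes for phosphate and for vitamin K chemistry, the systems in which Alpl and Mgp act, differed little as groups. The phosphate list had 8 of 14 genes measured and a median log2 ratio of 0.15, with 1 gene at least 1.5-fold higher and 1 as much lower. Among all measured genes, 9.32% were that much higher and 7.90% that much lower. Nt5e, which makes adenosine from AMP outside the cell, read 38.3 on the control array and 174.4 on the mutant array, at least 2.16-fold higher. Its other 2 probe sets stayed under the minimum. Fetub, a fetuin, read 449.8 and 243.1, 1.85-fold lower in the mutant pool. The phosphate carriers Slc20a1 and Slc20a2 read 2039.2 against 2139.8 and 1167.6 against 1155.9 in the control and mutant pools, though a dim probe set of Slc20a2 read 16.6 and 82.9. Ank, the pyrophosphate exporter, was 1.18-fold higher.

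Of 5 measured genes in the vitamin K list of 9, 0 reached 1.5-fold in either direction, beside 9.32% upward and 7.90% downward of all measured genes. The median log2 ratio was 0.07, and its sign was not stable, with values from -0.19 to 0.12 over the main and alternative settings. Ggcx, the carboxylase that activates Mgp, read 105.8 on the control array and 134.2 on the mutant array. Vkorc1, which recycles vitamin K, read 5507.3 and 4834.5, and Gas6, another Gla protein, 4363.6 and 3465.8. Bglap (osteocalcin) had no probe set under its symbol alone and was not analysed here.

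Osteoblast transcription factors differed in both directions. With 8 of 16 listed genes measured, 2 passed 1.5-fold upward and 2 downward, with a median log2 ratio of 0.20. Among all measured genes, 9.32% passed it upward and 7.90% downward. Twist2, a factor of mesenchymal cells that restrains Runx2, read 155.5 on the control array and 464.0 on the mutant array, 2.98-fold higher. Atf4, a partner of Runx2 in osteoblasts, was 1.96-fold higher on 1 probe set and 1.11-fold on another. Cbfb, the subunit that Runx proteins need to bind DNA, read 6193.4 and 9072.9, 1.46-fold higher. Runx1, which marks pregranulosa cells in the ovary, read 733.7 and 331.0, 2.22-fold lower, and Msx1 was 1.89-fold lower. The other measured probe sets of Runx1 were 2.12-fold, at least 1.19-fold and at least 1.01-fold lower. Sp7 (osterix), the factor downstream of Runx2, read 62.9 and 67.0, under the minimum in both pools. Runx3, Dlx3, Dlx5, Dlx6 and Msx2 were under it as well.

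Among receptors for bone sialoprotein and osteopontin, 8 of 10 genes were measured, and their median log2 ratio was 0.32. At least 1.5-fold higher were 3, and 0 were as much lower. Over all measured genes the shares were 9.32% and 7.90%, which stand beside the BMP counts below as well. Itgb3, the beta chain of the vitronectin receptor that binds bone sialoprotein, read 111.1 on the control array and 206.1 on the mutant array, 1.86-fold higher. Its partner Itgav read 11616.8 and 12117.3, within the spread between probe sets, but a dim probe set read 43.2 and 104.3, at least 1.29-fold higher. Itga4 was 1.95-fold and Itga8 1.61-fold higher, but the other measured probe set of Itga8 was 1.03-fold higher. Cd44, a receptor for osteopontin, was 1.26-fold higher on 1 probe set and 1.36-fold lower on the other. In the BMP list 3 of 8 measured genes passed 1.5-fold upward and 0 downward, with a median of 0.30. These were Bmp5 at 2.69-fold, Bmp2 at 1.77-fold and Smad1, a BMP signal transducer, at 1.52-fold. The other measured probe set of Smad1 was 1.22-fold higher and that of Bmp5 at least 1.37-fold.

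**Figure D4:**
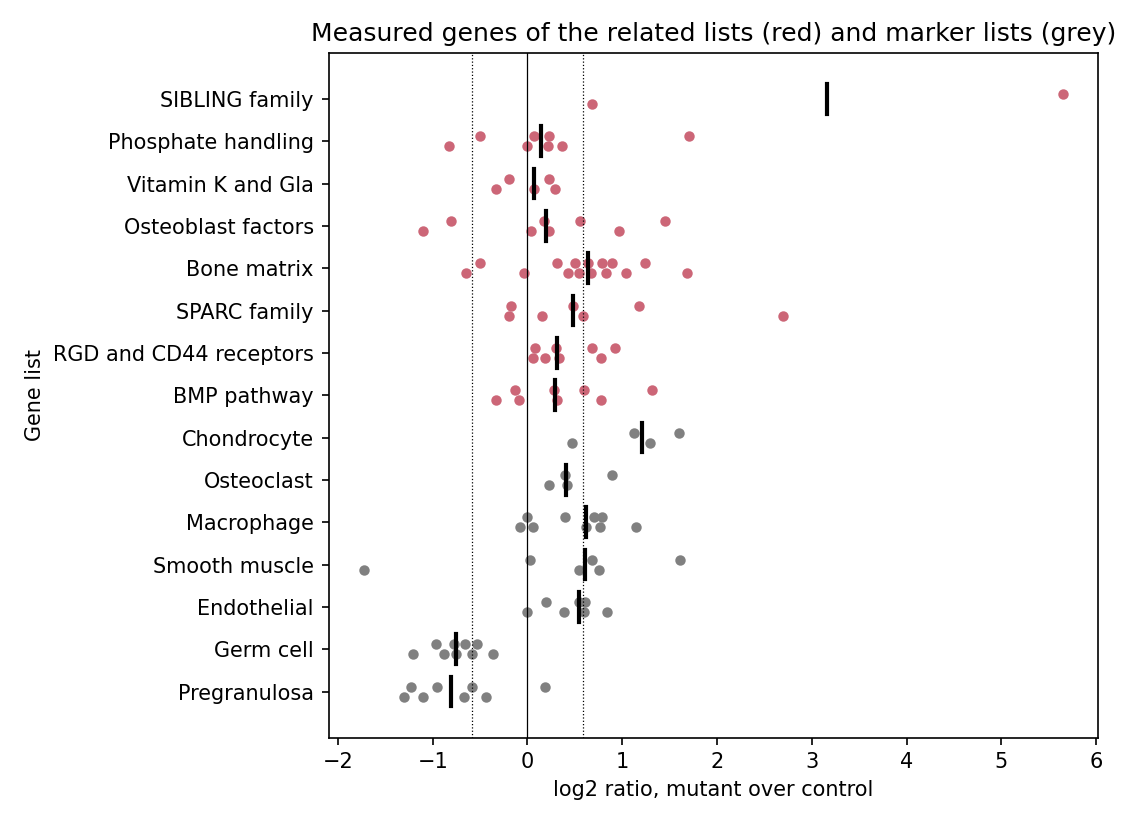
Log2 ratio of mutant over control for each measured gene of the related lists (red) and the cell type marker lists (grey), with a bar at each median and dotted lines at 1.5-fold in both directions. The bone matrix median of 0.64 lies over the upper dotted line, the SIBLING median of 3.16 rests on Ibsp and Dmp1 alone, and the germ cell and pregranulosa medians of -0.75 and -0.81 lie beyond the lower one. Ibsp and Dmp1 were measured through the mutant pool alone.

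Defining markers of skeletal cells were mostly under the minimum in both pools. By log2 ratio, 3 of the 4 measured chondrocyte markers were at least 1.5-fold higher in the mutant pool and 0 were as much lower. Over all measured genes, 9.32% were that much higher and 7.90% that much lower. In the chondrocyte list 8 of 12 genes were under it on both arrays, among them Col2a1 (26.6 and 1.5), Acan (1.1 and 65.5) and Col10a1 (2.4 and 1.7). The 4 measured genes, Hapln1, Sox9, Col9a1 and Ihh, summed to a signal of 425.3 on the control array and 1099.8 on the mutant array. Their median log2 ratio was 1.21. Sox9, Col9a1 and Ihh (56.3 and 86.9) were under the minimum in the control pool. They were measured through the mutant pool alone, so they could only come out higher. Hapln1 alone was over the minimum in both pools. Hapln1, which links hyaluronan to proteoglycans, was 2.57-fold higher. Sox9, a transcription factor of cartilage and of the testis, read 53.0 and 140.9, at least 1.75-fold higher. Col9a1, a cartilage collagen chain, read 34.1 and 148.1, at least 1.84-fold higher, while its other probe set was under the minimum in both pools. Of the mature osteoblast and osteocyte list, Sp7, Mepe, Sost and Fgf23 were under the minimum in both pools. Its 3 measured genes, Phex, Dmp1 and Ifitm5, summed to 288.2 and 328.7. Dmp1 and Ifitm5 passed 1.5-fold upward by log2 ratio, but they were measured through the mutant pool alone. Their bounds were only 1.08-fold and 1.04-fold. Phex, over the minimum in both pools, was 1.47-fold lower in the mutant pool. In the osteoclast list 8 of 12 genes were under it, and the 4 measured ones summed to 427.9 and 623.6. Of these 1 passed 1.5-fold upward, Mmp9, which read 76.7 and 160.6. Mmp9 and Acp5 (59.1 and 84.9) were also measured through the mutant pool alone. Skeletal muscle markers were measured for 1 of 7 genes.

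Markers of other cells that can make matrix or osteopontin had higher summed signals in the mutant pool, and those of germ and pregranulosa cells had lower ones, with members that differed little in most lists. As a reference for the counts in these lists, 1.5-fold was passed upward by 9.32% and downward by 7.90% of the 12308 measured genes. Macrophage markers had 9 of 12 genes measured, and 5 of them were at least 1.5-fold higher. Their summed signal was 5681.7 on the control array and 9261.0 on the mutant array. Csf1r, at 3274.2 and 5610.9, gave most of that difference, while Adgre1 read 226.2 and 225.5 and C1qc 129.9 and 121.4. That Csf1r probe set was 1.71-fold higher, and its other measured ones were 1.28-fold and at least 1.93-fold higher. C1qb, among the 5, was 2.37-fold, 1.19-fold and at least 1.03-fold higher on its probe sets. Smooth muscle markers summed to 8783.5 and 14153.7 over 6 of 8 genes, 3 at least 1.5-fold higher and 1, Des, as much lower by log2 ratio. Acta2, at 7247.6 and 12202.7, gave most of that difference, and Tagln read 1018.8 and 1042.3. Des read 91.4 and 12.1, so it was measured through the control pool alone, with a bound of 1.13-fold. Endothelial markers summed to 2429.4 and 3219.0 over 7 of 8 genes, and 3 of them were at least 1.5-fold higher by log2 ratio. Of these, Pecam1 read 68.8 and 116.7, a bound of 1.45-fold. Tek read 658.0 and 656.0. All 9 germ cell markers were measured, 6 were at least 1.5-fold lower, and their sum was 30624.3 on the control array and 18743.6 on the mutant array. The 8 pregranulosa markers, of which 6 were that much lower, summed to 37668.0 and 27269.5, and Kitl among them read 12947.7 and 14626.8. Amhr2, also among them, read 8590.9 and 3485.5 and gave the largest part of the drop. That was 2.46-fold lower, and its other measured probe sets were 2.41-fold and 1.22-fold lower. One Amhr2 copy is altered by Cre in the mutant pool, so its lower signal cannot be told apart from the genotype. The part of these shifts in the values of Ibsp, Mgp, Sparc and the matrix genes was not tested.

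Markers of oocytes and granulosa cells were strong, with Ddx4, Figla and Foxl2 at 3322.2, 7590.6 and 8096.6 in the control pool. The hedgehog targets in the mutant pool included Ptch1, 2.86-fold higher, and Gli1, 2.56-fold higher. Both arrays had the same mean signal of 500.003 once the lowest and highest 2% of values were left out, and 50.3% and 49.8% of probe sets reached the minimum in the control and mutant pools. The ratio of 3′ to 5′ signal was 8.48 and 10.5 for beta-actin and 3.28 and 4.98 for Gapdh, a measure of RNA integrity that moved with the pools. Its part in the differences above was not tested.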

How the data were processed

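RNA from ovaries was pooled from 8 animals per genotype and each pool was hybridised to 1 array, per the labels' protocols. The authors deposited one signal intensity per probe set, which is linear and not logged. The submitters' processing notes name GCOS. How it was set is not given in the sources used here. Intensities were used as deposited. Genes came from the platform annotation, in which 34945 probe sets name a single gene and 932 several. A further 9211 are not listed, and the 64 control probe sets were kept out. Of the first, 34737 were matched to the GRCm38.p6 gene table by Entrez ID, and 0 symbols differed.

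A probe set was measured when its higher signal reached 80.7, and log2 ratios used a pseudocount of 22.2. Bacillus control probe sets, which mouse RNA does not match, reached at most 26.9. In the lists a gene took the values of whichever measured probe set was brightest on average. Fold thresholds were 1.5 and 2 by log2 ratio, not by the bound. The named genes are the members, the SIBLING, SPARC and alkaline phosphatase families, the coding neighbours of Ibsp, tissue markers, and from each other list genes at 1.5-fold or the largest log2 ratios. Col1a2, Col11a1, Dcn, Itgav, Ank, Slc20a1, Slc20a2 and list genes under the minimum were named outside this rule, after their values were seen. Genes were not ranked by likeness to a member, since 2 arrays give 1 ratio per gene. The members and lists were chosen with earlier results of these data known. Precision is limited by having 1 array per pool. Ratio and spread steps were tested on simulated data. Python 3.11.15, numpy 2.4.6 and pandas 2.3.3 were used, and 11 alternative settings were tried.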

Additional observations from a re-analysis of the deposited data

How the results depend on the processing

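There is 1 array per group, so no replicate could be left out. No paired analysis was possible because each group holds a single array. Of 249 values recomputed under 11 alternatives, 218 stayed within the SD between probe sets (or within 1.5 times, for counts and shares), 31 moved and 0 called values reversed. Mgp stayed between 0.21 and 0.28, Sparc probe set 1 between 0.10 and 0.20 and Sparc probe set 2 between 0.41 and 0.52.

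Ibsp has no measured control level, so its log2 ratio follows the pseudocount. Probe sets 1 and 2 had 3.95 and 0.90 with the pseudocount at the median, 7.41 and 2.01 at the 10th percentile, and 3.89 and 0.55 with values raised to the minimum. Member probe sets at least 2-fold higher were 1 in place of 2 with the pseudocount at the median, the minimum at the 75th percentile, or values raised to the minimum, and to 0 with both arrays required to reach the minimum. Members at least 1.5-fold higher were 2 with the minimum at the 25th percentile or no filter, and 0 with both arrays required.

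The SIBLING median, resting on Ibsp and Dmp1, was 2.18 and 4.13 with the pseudocount at the median and the 10th percentile. It was 5.65 with the minimum at the 75th percentile or without shared probe sets, where Ibsp alone remained, and 0.78 with the minimum at the 25th percentile. It was 0.73 with no filter, 2.00 with values raised and 2.14 with probe sets averaged. Genes of the wider lists at least 1.5-fold lower were 9 in place of 4 with the minimum at the 25th percentile or no filter.

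The background shares here are of measured probe sets. The share at least 2-fold higher was 1.66% with the pseudocount at the median and 1.77% with both arrays required. The share at least 2-fold lower was 0.637%, 1.10%, 3.70%, 3.14% and 1.14% with the pseudocount at the median, the minimum at the 75th and 25th percentiles, no filter and both arrays required. The share of measured probe sets at least 1.5-fold lower was 5.92% with the pseudocount at the median, in place of 9.87%. The 7.90% given above is a share of measured genes.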

Other observations

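For members without a measured value, only the sequence before the start was described. The table of RefSeq promoters held windows for 5 of the 6 genes. The Runx core TGTGGT was present on the opposite strand in the Runx2 window, from 80 to 75 bases before the start, and in 1 of 2 Spp1 windows, from 128 to 123 bases before it. That Spp1 window also held CCAAT on the opposite strand, from 46 to 42 bases before the start, and TATAAA from 211 to 206 bases before it. Of the 2 Alpl windows, 1 held TATAAA on the opposite strand, from 192 to 187 bases before the start. The Gli core GGGTGGT was in none of these windows. No match says only that these letters are not in the window.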
